A study of Bos taurus with 14 samples.

Results

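Satellite cells are the resident stem cells of skeletal muscle, lying between a fibre and its basal lamina, and in adult muscle they are mostly quiescent. PAX7 marks them, and activated cells pass through a cascade of basic helix-loop-helix factors, the myogenic regulatory factors MYF5, MYOD1, MYOG and MYF6, which commit them to the muscle lineage, drive their differentiation and, in the case of MYF6, stay on in mature fibres. MEF2C and SIX4 are transcription factors that act with this cascade, and CDH15 (M-cadherin) is an adhesion protein found where satellite cells touch the fibre. Described here are 9 genes of this set, picked by name among the 18078 gene rows of a count table: PAX7, PAX3, MYF5, MYOD1, MYOG, MYF6, CDH15, MEF2C and SIX4. Each of the 9 stood on 1 row, and 8 of them, all but PAX3, passed the filter on low counts.

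RNA was sequenced from the longissimus dorsi, the long back muscle, of 14 female cattle (Bos taurus) at postnatal day 485. The dams of 7 animals were nutrient restricted from day 158 of gestation to birth (restricted), and the dams of 7 were fed 100% of their nutrient requirement over the same time (control). The submitters give the restricted level as 70% in one place and as 50% in another, so no percentage is attached to the group. After birth both groups had the same management, and from day 301 they ate ad libitum. Titles carry a first and a last letter whose meaning is not given, and these were treated as possible batches. The last letter was B for control 2, control 4, restricted 1, restricted 2 and restricted 7, and A for all others. Comparisons among titles ending in B thus rest on few animals. Each library is 1 animal, breed, sires and shared dams are not given in the labels, and p-values measure the spread between these animals. Total counts ran from 13631018 to 17325779 per animal. Markers of the labelled tissue were present, with ACTA1, the skeletal actin, at 46492 CPM (counts scaled to a common library size, with library composition taken into account) in restricted and 41590 CPM in control animals on average.

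The first question was how abundant each factor was in adult muscle. Per kilobase of gene length as listed in the table, the order from high to low was MEF2C, MYF6, MYOG, SIX4, MYOD1, CDH15, MYF5, PAX7 and PAX3. MEF2C averaged 61.1 ± 7.75 and MYF6 60.9 ± 11.4 CPM per kilobase (SD, n = 14), and MEF2C was the higher of this pair in 9 of 14 animals. MYOG, which drives terminal differentiation of myoblasts, averaged 28.4 ± 6.18 CPM per kilobase. SIX4 averaged 13.3 ± 2.03 and MYOD1, the commitment factor, 11.4 ± 4.31 CPM per kilobase, with SIX4 the higher in 10 of 14 animals. CDH15 averaged 3.84 ± 0.598, MYF5 1.37 ± 0.285, PAX7 0.636 ± 0.214 and PAX3 0.0247 ± 0.0297 CPM per kilobase.

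The 8 pairs of neighbours in this order were compared within animals by a two-sided exact permutation test that flips the sign of each animal's difference. For 6 of the 8, the more abundant gene was higher in 14 of 14 animals, with a permutation p of 0.000122, the smallest this test can give, and an adjusted permutation p of 0.000163. MEF2C and MYF6 did not differ beyond their spread (difference 0.199 CPM per kilobase, permutation p = 0.958, adjusted 0.958), nor did SIX4 and MYOD1 (1.85 CPM per kilobase, permutation p = 0.179, adjusted 0.204). Which parts of each gene the listed length covers is not given in the sources used here, and 43.3% of all listed lengths are multiples of 3, so levels of different genes are comparable only as far as these lengths hold.

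**Figure D1:**
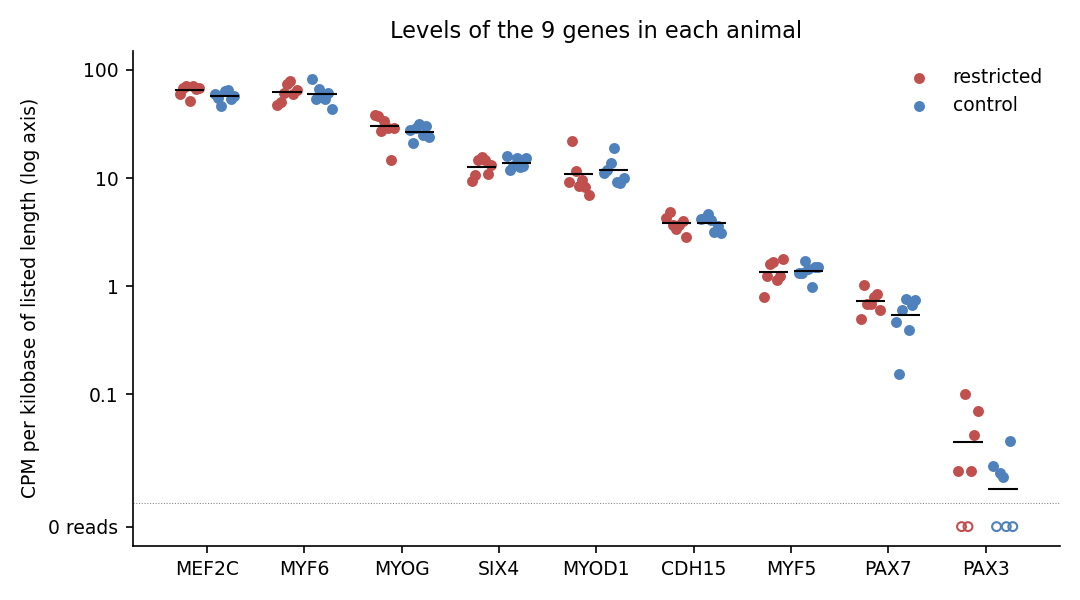
Level of each of the 9 genes in each animal, in CPM per kilobase of listed length on a log axis, with restricted animals left of control animals and a bar at each group mean. Open circles below the dotted line are animals with 0 reads, found for PAX3 only, and the diet groups overlap for every gene.

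Among the regulatory factors of the helix-loop-helix family, most reads belonged to MYF6, the factor that persists in mature fibres. Its share of the reads of the 4 genes was at lowest 48.6%, at median 66.9% and at highest 74.1% in restricted animals, against 55.5%, 64.2% and 70.4% in control animals. The mean share of MYF6 was 63.4% ± 8.98 in restricted and 63.0% ± 4.75 in control animals (SD, n = 7 each; difference 0.40 percentage points, two-sided exact permutation p = 0.911). MYOG held 24.2% ± 6.36 of these reads in restricted and 22.9% ± 2.61 in control animals (exact permutation p = 0.621). MYOD1 held 10.9% ± 4.86 in restricted and 12.6% ± 3.22 in control animals (exact permutation p = 0.476). MYF5, the earliest of the 4 in development, held 1.45% ± 0.369 in restricted and 1.57% ± 0.311 in control animals (exact permutation p = 0.512). Counted per kilobase, the MYF6 share was 59.8% ± 9.25 in restricted and 59.5% ± 4.79 in control animals. The lowest MYF6 share of all was in restricted 2 and the highest in restricted 6, so the extremes lay within 1 diet group.

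The depth of these libraries set unlike limits for the 9 genes. PAX3, the paralog of PAX7 that is active in embryonic muscle precursors, had 13 reads over the 7 restricted animals and 5 reads over the 7 control animals. Its counts were 0 in 2 restricted and 3 control animals and at most 5 reads, in restricted 3. A count of 0 has an exact 95% Poisson interval of 0 to 3.69 reads. In the animals with 0 reads its upper end ran from 0.215 CPM (control 2) to 0.278 CPM (control 5). Only restricted 3 and restricted 7 reached 3 reads, the floor used here. PAX3 was therefore not measurable at this depth in most animals and was not tested between diets in the main fit. PAX7 had 12 to 24 reads per restricted animal and 4 to 21 reads per control animal. The lowest, 4 reads in control 2, has an exact 95% Poisson interval of 1.09 to 10.2 reads, and the highest, 24 reads in restricted 2, one of 15.4 to 35.7 reads. Such intervals and limits cover counting error only. MYF5 had 25 to 63 reads in restricted and 26 to 56 reads in control animals, while mean counts of the other 6 genes ran from 197.7 (CDH15) to 2778 (MEF2C) reads per animal.

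The spread between animals of a diet group was set against the spread that counting alone would give. For PAX7 the coefficient of variation of CPM was 31.0%, and counting error alone gives 25.7%, which is 68.4% of the variance. For MYF5 the observed value was 21.5% and that of counting 15.2%, or 50.3% of the variance. For CDH15 counting error made up 19.5% of the variance. For MYOD1, MYOG, MYF6, MEF2C and SIX4 it made up between 1.48% (MYF6) and 4.07% (SIX4), so nearly all their spread lay between libraries. MYOD1 varied most among these, with a coefficient of variation of 39.0%, and MEF2C least, with 11.2%.

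**Figure D2:**
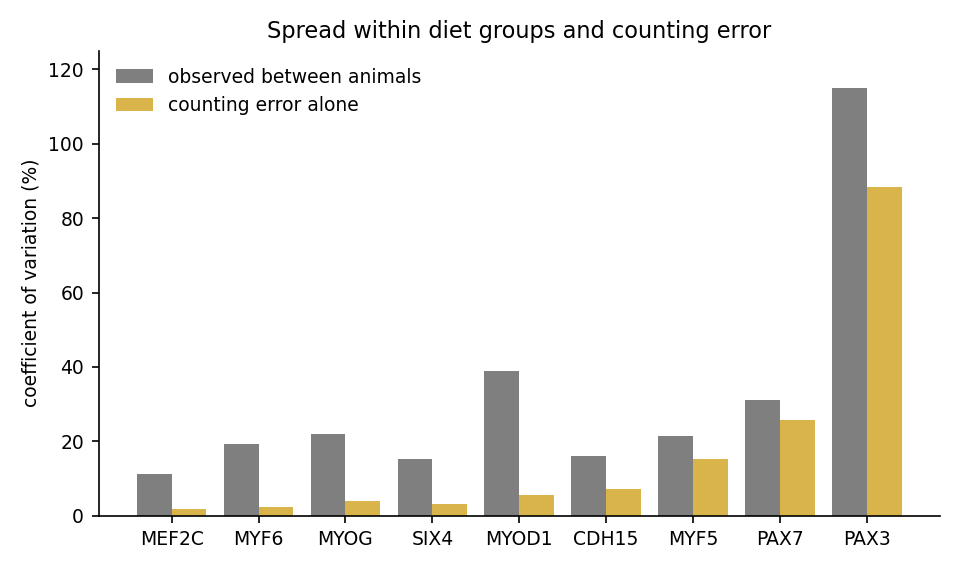
Coefficient of variation of CPM within diet groups (grey) beside that of counting error alone (yellow), in percent, for each gene in order of level. The bars are close for PAX7 and far apart for MYOD1, where 39.0% was observed and counting error gives 5.44%.

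The second question was whether feeding of the dam went with a difference in these genes. After Benjamini-Hochberg adjustment over the 12187 genes tested, the quasi-likelihood test of edgeR put 0 of the 8 tested members past the threshold of 0.05, against a background of 0% of all genes. At an unadjusted p under 0.05 there was 1 member, MEF2C, against 518 genes or 4.25% of all genes tested. MEF2C was the 1 member higher in restricted animals at that p (background 2.17%), and 0 members were lower (background 2.08%). The fold change lay above 1 for PAX7, MYOG, MYF6 and MEF2C and below 1 for MYF5, MYOD1, CDH15 and SIX4, and the median log2 fold change of the 8 was 0.017, beside -0.00079 over all genes. The 95% intervals of 7 of the 8 members excluded a 2-fold difference in both directions (background 95.3%), and those of 6 of the 8 excluded a 1.5-fold difference (background 77.8%). PAX7 was the exception in the first count and PAX7 and MYOD1 in the second.

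PAX7, which marks satellite cells, was at lowest 0.753, at median 1.04 and at highest 1.55 CPM in restricted animals, against 0.233, 0.906 and 1.16 CPM in control animals. Of the 7 restricted animals 5 lay above the control median and 3 above the highest control, and the groups overlapped. The ratio was 1.34 with a 95% interval of 0.894 to 2.004 (edgeR unadjusted p = 0.146, adjusted p = 0.99997), and it was closer to 1 without control 2, at 0.25 on the log2 scale against 0.42 with all animals. In bulk tissue, a difference in the number of satellite cells and one in PAX7 RNA per cell cannot be told apart. For PAX3, fitted without the filter, the ratio was 2.41 (0.779 to 7.46), resting on 18 reads in all.

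MYF5 was at lowest 1.57, at median 2.45 and at highest 3.57 CPM in restricted animals, against 1.96, 2.83 and 3.38 CPM in control animals. Both the lowest and the highest animal were restricted ones, and the ratio was 0.971 (0.750 to 1.26). MYOD1 was at lowest 13.0, at median 17.2 and at highest 41.5 CPM in restricted animals, against 16.7, 20.6 and 35.6 CPM in control animals. A single animal stood out at the top of each group, restricted 2 and control 4, with the next animals at 21.7 CPM (restricted 3) and 25.6 CPM (control 3). The MYOD1 ratio was 0.908 (0.645 to 1.28, edgeR unadjusted p = 0.562), and its log2 fold change of -0.14 became -0.41 without restricted 2 (edgeR unadjusted p = 0.0258, adjusted p = 0.999) and 0.012 without control 4.

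MYOG was at lowest 22.03, at median 44.2 and at highest 57.7 CPM in restricted animals, against 31.8, 42.1 and 47.4 CPM in control animals. The restricted group held the lowest animal (restricted 6) and the 3 highest. The ratio was 1.12 (0.883 to 1.41, edgeR unadjusted p = 0.337), and the log2 fold change of 0.16 depended on single animals and on the last title letter. It was 0.28 without restricted 6 (edgeR unadjusted p = 0.0186, adjusted p = 0.9997), 0.088 without restricted 1 (edgeR unadjusted p = 0.593) and 0.096 without restricted 2 (edgeR unadjusted p = 0.563). Among titles ending in A it was -0.051 (edgeR unadjusted p = 0.792), and among those ending in B 0.42 (edgeR unadjusted p = 0.0772). MYF6 was at lowest 90.2, at median 114.6 and at highest 148.4 CPM in restricted animals, against 82.7, 106.8 and 155.2 CPM in control animals, so the control range enclosed the restricted one. The MYF6 ratio was 1.04 (0.859 to 1.27).

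CDH15 was at lowest 9.22, at median 12.0 and at highest 15.7 CPM in restricted animals, against 10.1, 13.3 and 15.2 CPM in control animals. Its ratio was 0.982 (0.822 to 1.17), the closest to 1 of the 8. SIX4, a homeobox factor that works with EYA cofactors upstream of the regulatory factors, was at lowest 47.4, at median 66.2 and at highest 78.4 CPM in restricted animals, against 59.4, 65.2 and 80.7 CPM in control animals. The 3 lowest SIX4 values were all in restricted animals, and the ratio was 0.921 (0.782 to 1.08, edgeR unadjusted p = 0.303). Its log2 fold change of -0.12 was -0.058 without restricted 1.

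MEF2C, a MADS-box factor that cooperates with the regulatory factors and sustains sarcomere genes in fibres, was at lowest 147.2, at median 196.6 and at highest 204.2 CPM in restricted animals, against 132.5, 164.5 and 188.8 CPM in control animals. Of the 7 restricted animals 6 lay above the control median and 5 above the highest control, while restricted 4, at 147.2 CPM, lay among the low controls. The ratio was 1.14 (1.0003 to 1.29) with an edgeR unadjusted p of 0.0495 and an adjusted p of 0.99997, and by unadjusted p it ranked 516 among the 12187 genes. Its log2 fold change of 0.19 kept its sign in all 26 alternatives, from 0.14 with library size scaling to 0.24 without restricted 4, and the unadjusted p was under 0.05 in 9 of them, with no adjusted p below 0.801. It was 0.20 among titles ending in A (edgeR unadjusted p = 0.135) and 0.15 among those ending in B (edgeR unadjusted p = 0.278). Markers of muscle fibres lay on the same side. Of a fibre list of 10, 9 genes were tested and 9 of the 9 had a fold change above 1, against 49.7% of all genes. Their median log2 was 0.10. The mean log2 CPM of the list per animal ran from 13.58 to 13.77 in restricted and from 13.38 to 13.71 in control animals. In an endothelial list, another cell type in which MEF2C is known to act, 2 of 9 genes were above 1, with a median log2 of -0.12 and a range of 4.10 to 4.59 in restricted and 4.12 to 4.71 in control animals. None of the genes of either list passed the test between diets, and none of the tested markers was at 0 in any animal. Over the 14 animals, Pearson's r of MEF2C with the fibre list was 0.20 (permutation p = 0.499, adjusted 0.963). It was -0.23 within restricted and 0.048 within control animals. With the endothelial list r was 0.25 (permutation p = 0.380, adjusted 0.963), and 0.36 within restricted and 0.46 within control animals. The part of either cell type in the MEF2C ratio was not tested.

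**Figure D3:**
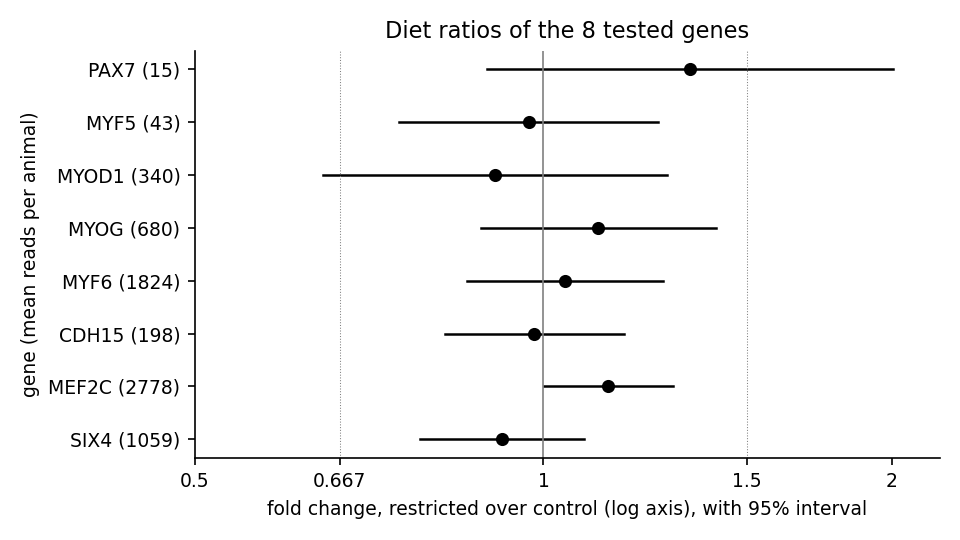
Fold change of each of the 8 tested genes, restricted over control, on a log axis with its 95% interval from the edgeR fit, and mean reads per animal beside each name. The PAX7 interval is the widest and reaches 2.004, and the MEF2C interval starts next to 1.

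The third question was whether these genes varied together from animal to animal. Over the 14 animals, log2 CPM of the 8 tested members gave 28 pairs, of which 0 passed after Benjamini-Hochberg adjustment by Pearson's or Spearman's coefficient (100000 permutations, two-sided), and 2 had an unadjusted permutation p under 0.05 by each. The median r was 0.023, and 16 of the 28 were positive. The most negative r was -0.41, for CDH15 and SIX4 (permutation p = 0.145, adjusted 0.981), with -0.64 over the 7 restricted and -0.13 over the 7 control animals. About as many of the 28 pairs turned sign between diets as kept it, with each coefficient resting on 7 animals. Those with the widest gaps are given here as values. MYF6 and CDH15 had r = -0.67 in restricted and 0.62 in control animals, and MYF5 and CDH15 -0.68 in restricted and 0.49 in control animals. These differences between diets were not tested. No relation among the members of the helix-loop-helix family passed: their 6 pairs had r from -0.24 (MYOD1 and MYF6) to 0.34 (MYF5 and MYF6), with permutation p from 0.234 to 0.988. MYF5 and MYF6 are neighbours in the RefSeq annotation of the assembly ARS-UCD2.0, with 0 genes starting between them, and their r was 0.34 (permutation p = 0.234, adjusted 0.981; rho 0.38, permutation p = 0.186, adjusted 0.867). Without control 5 and restricted 1, the animals farthest from the median of MYF5, it was 0.014, and without control 1 and control 7, those farthest from the median of MYF6, it was 0.56. Within diets it was 0.54 over the 7 restricted and 0.12 over the 7 control animals. For PAX7 the 7 coefficients ran from -0.033 (with CDH15) to 0.31 (with MEF2C). Over 14 animals a weak relation would not be visible for any pair, and for PAX7 and MYF5 counting error adds to this limit.

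CDH15 and MYOD1 were the pair with the highest coefficient, with r = 0.70 (permutation p = 0.00415, adjusted 0.116) and rho = 0.71 (permutation p = 0.00579, adjusted 0.162). The sign held within diets, with r = 0.77 over the 7 restricted and 0.63 over the 7 control animals, and r was 0.69 without control 4 and restricted 2, the animals with the most MYOD1. With each animal taken relative to the mean of its last title letter it was 0.67. It was 0.48 without restricted 2 and restricted 7, the animals farthest from the median of CDH15. Restricted 2 had the most of both genes and restricted 7 the least of both. Among all other 12186 genes tested, CDH15 ranked 72 by r with MYOD1, and MYOD1 ranked 92 by r with CDH15, so many genes followed either of them more closely.

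MYF5 and SIX4 had r = 0.57 (permutation p = 0.0327, adjusted 0.458) and rho = 0.43 (permutation p = 0.130, adjusted 0.867), with r = 0.73 over the 7 restricted and 0.13 over the 7 control animals. This relation rested on few animals: r was 0.26 without control 5 and restricted 1, 0.36 without control 1 and restricted 1, and 0.28 without restricted 1 alone, the animal with the least of both genes. MYF6 and SIX4 had r = 0.51 (permutation p = 0.0611, adjusted 0.570) and rho = 0.56 (permutation p = 0.0411, adjusted 0.575). Their r was 0.88 over the 7 restricted and 0.18 over the 7 control animals, a difference between diets that was not tested. Without control 1 and control 7 it was 0.72, and without control 1 and restricted 1 it was 0.26. MYOD1 and MYOG, successive steps of the differentiation cascade, had r = 0.32 (permutation p = 0.261, adjusted 0.981; rho 0.081, permutation p = 0.786, adjusted 0.988), and r was -0.013 without control 4 and restricted 2 and 0.31 without control 2 and restricted 6.

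**Figure D4:**
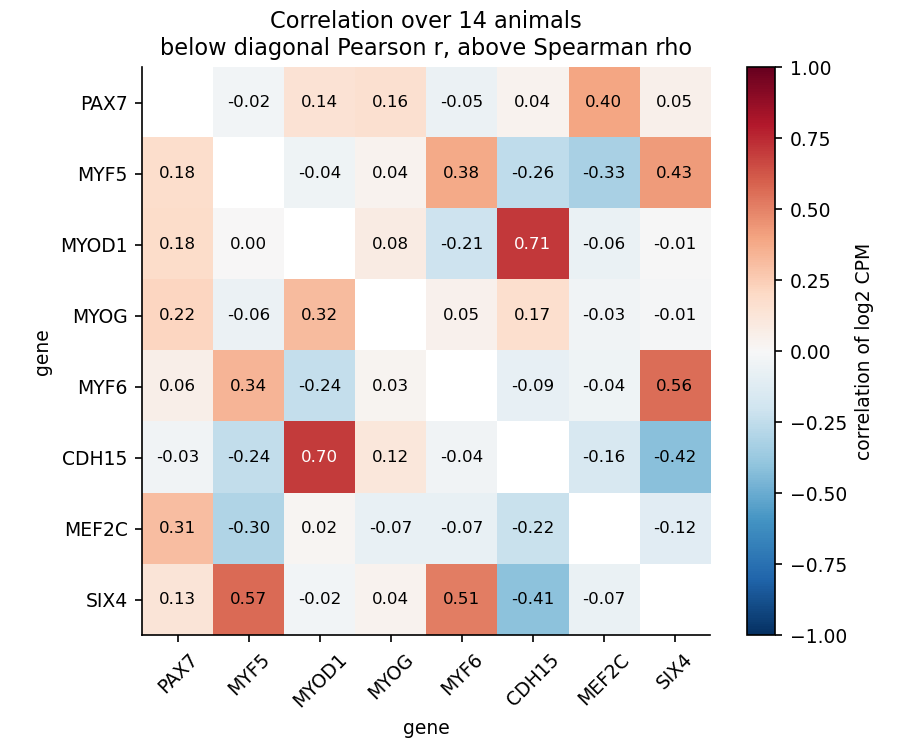
Correlation of log2 CPM between the 8 tested genes over the 14 animals, with Pearson's r below the diagonal and Spearman's rho above it, coloured from -1 (blue) to 1 (red). MYOD1 and CDH15 stand out at 0.70 and 0.71, and the pairs among MYF5, MYOD1, MYOG and MYF6 lie between -0.24 and 0.34 by r.

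Restricted 2 and control 4, which had the most MYOD1 in their groups at 41.5 and 35.6 CPM, also had the most PAX7 in their groups, at 1.55 and 1.16 CPM. They ranked 2 and 4 of the 14 animals for MYOG, at 56.5 and 47.4 CPM. For CDH15 they ranked 1 and 6, for MYF5 10 and 7, and for MYF6 12 and 9. These animals were picked for their MYOD1, and both PAX7 leads were within counting error. That of control 4 over the next control was 21 against 18 reads, and that of restricted 2 over restricted 6 was 24 against 19 reads. Over all 14 animals PAX7 and MYOD1 had r = 0.18 (permutation p = 0.512, adjusted 0.981) and rho = 0.14 (permutation p = 0.625, adjusted 0.988), and r was -0.34 without control 4 and restricted 2 and 0.42 without control 2 and control 5, the animals with the least PAX7.

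Each tested member was also set against 11 lists of markers of fibre types and other cells in the muscle, giving 88 relations. Of the genes on these lists 0 passed between diets. At an edgeR unadjusted p under 0.05 there were MYL1, a light chain and 1 of 10 fast fibre genes tested, and LMOD1, 1 of 8 smooth muscle and pericyte genes tested. None of the other lists held such a gene, and the background was 4.25% of all genes tested. By Pearson's r, 1 passed after adjustment, that of CDH15 with interferon response genes, and 0 passed by Spearman's rho (smallest adjusted permutation p = 0.622). The interferon scores fell into clusters, with control 7, restricted 4 and restricted 7 between 3.53 and 5.05 mean log2 CPM and the other 11 animals between 0.24 and 2.05, so no coefficient over all animals is given. CDH15 was at 10.9 CPM in restricted 4 and 9.22 CPM in restricted 7, and at 10.1 CPM in control 7, which placed these animals at rank 11, 14 and 13 of 14. Within the other 11 animals r was -0.47 (permutation p = 0.139, adjusted 0.991). The call held in 4 of the 14 analyses that left out 1 animal, those without control 5, restricted 2, restricted 3 or restricted 5, and was lost in the other 10. Of the other 7 relations to interferon genes 0 passed, and within the same 11 animals their r ran from -0.32 (MYOD1) to 0.20 (MYOG). MYOD1 was at 15.6 CPM in restricted 4, 13.0 CPM in restricted 7 and 18.7 CPM in control 7, rank 12, 14 and 7 of 14. Of the 80 relations to the other lists, r ran from -0.61 to 0.45 with a smallest adjusted permutation p of 0.764. These included the slow and fast fibre lists, for which the largest coefficients were 0.26 (PAX7) with slow and 0.34 (MEF2C) with fast fibre genes.

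**Figure D5:**
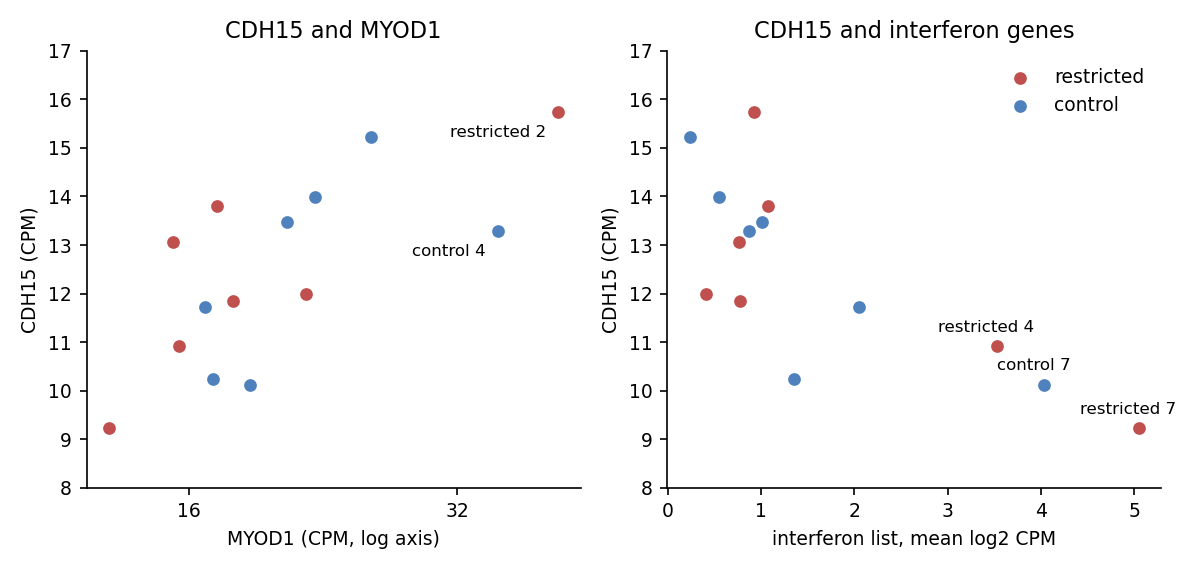
CDH15 in CPM against MYOD1 in CPM on a log axis (left) and against the mean log2 CPM of 11 interferon response genes (right), 1 point per animal, restricted in red and control in blue. On the right, the 3 animals with scores above 3 have CDH15 between 9.22 and 10.9 CPM, and control 5 lies as low as they do at 10.2 CPM.

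The genes most like each member over the 14 animals were taken among 10926 to 10927 named genes of at least 1 CPM, by Spearman's rho, as a description. For MYOD1 the closest was JAG2, a Notch ligand, with rho = 0.87, followed by EGLN2, an oxygen-sensing prolyl hydroxylase (0.85), and GTF2E2, a subunit of the general factor TFIIE (0.84). For SIX4 the second closest was MET, the receptor for hepatocyte growth factor that satellite cells carry, with rho = 0.83, after ZNF350 (0.86). For CDH15 it was REXO4 (0.92), for MYOG ACTR6 (0.90), for MEF2C the bicarbonate transporter SLC4A4 (0.89) and for MYF6 the RNA-binding protein RBM15 (0.88). For PAX7 and MYF5 the closest were NFE2L3 (0.82) and RETREG3 (0.81). No other member was among the 3 closest genes of any member.

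Other genes of the myogenic programme were read from 6 lists. At an edgeR unadjusted p under 0.05 there was 1 of 16 tested satellite cell surface and niche genes. There was also 1 of 14 partners and inhibitors of the regulatory factors, and 1 of 14 MEF2 and SIX-EYA factors. There were 0 of 14 Notch, 0 of 7 fusion and 0 of 9 proliferation genes, against a background of 4.25% of all genes tested. Among satellite cell surface and niche genes, 16 of 18 were tested and 0 passed in either direction, with 8 fold changes above 1, 8 below and a median log2 of -0.0023. CALCR, the calcitonin receptor of quiescent satellite cells, had 5 to 28 reads per animal and a ratio of 1.12 (0.715 to 1.77). ITGA7, the integrin that anchors fibres and satellite cells to laminin, averaged 129 CPM in restricted and 124 CPM in control animals, and TEAD1, a transcription factor of the Hippo pathway, 52.6 CPM in restricted and 50.7 CPM in control animals. NCAM1, an adhesion molecule of satellite cells and denervated fibres, was at lowest 10.1, at median 18.3 and at highest 26.2 CPM in restricted animals, against 7.79, 10.7 and 17.5 CPM in control animals. Its ratio was 1.62 (1.19 to 2.21) with an edgeR unadjusted p of 0.00435, which did not pass after adjustment, and 6 of 7 restricted animals lay above the control median.

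Of the Notch pathway, which keeps satellite cells quiescent, 14 of 14 genes were tested and 0 passed. Fold changes were below 1 for 12 of the 14 and above 1 for HES1 and HEYL, both Notch targets, with a median log2 of -0.085, where 49.7% of all genes tested had a fold change above 1. JAG2 averaged 27.3 CPM in restricted and 31.8 CPM in control animals, a ratio of 0.859 (0.712 to 1.04), and MIB1, a ligase that activates Notch ligands, 35.4 CPM in restricted and 38.9 CPM in control animals. Among partners and inhibitors of the regulatory factors, 14 of 18 were tested and 0 passed, with 6 above 1 and 8 below. BHLHE40 and BHLHE41, those with the most reads, had ratios of 1.03 (0.781 to 1.36) and 1.01 (0.836 to 1.23). The E protein TCF12 had a ratio of 1.004 (0.889 to 1.13), and the inhibitors ID1, ID2 and ID3 ratios of 0.830, 0.885 and 0.831 with intervals that include 1. CDKN1A, the cell cycle inhibitor p21 that MYOD1 is known to induce, was at lowest 11.5, at median 15.8 and at highest 40.1 CPM in restricted animals, against 6.37, 12.3 and 17.6 CPM in control animals. Its ratio was 1.52 (1.03 to 2.25), with an edgeR unadjusted p of 0.0357, not past the threshold after adjustment, and restricted 6 was the highest animal.

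Among the other MEF2 and SIX-EYA factors and the class IIa histone deacetylases that repress MEF2, 14 of 16 were tested and 0 passed, with 6 above 1 and 8 below. The ratios of the MEF2 paralogs lay nearer 1 than that of MEF2C (1.14, 1.0003 to 1.29), with MEF2A at 0.966 (0.843 to 1.11) and MEF2D at 0.994 (0.897 to 1.10). These intervals overlap, and the difference between paralogs was not tested. SIX5 was at lowest 0.630, at median 1.47 and at highest 1.93 CPM in restricted animals, against 1.33, 2.26 and 2.60 CPM in control animals, with 0 of 7 restricted animals above the control median. Its ratio was 0.687 (0.498 to 0.949), with an edgeR unadjusted p of 0.0254 that did not pass after adjustment. HDAC9 had a ratio of 1.18 (0.994 to 1.39), with 7 of 7 restricted animals above the control median.

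Of 13 listed names of fusion genes and developmental isoforms, 12 had a row in the count table. Of these 7 were tested and 0 passed, with 3 fold changes above 1, 4 below and a median log2 of -0.051. CHRNA1, a subunit of the acetylcholine receptor, had a ratio of 1.13 (0.850 to 1.51), and CAV3, the caveolin of muscle fibres, one of 1.02 (0.903 to 1.15). MYOF had the smallest p of this list, with a ratio of 0.830 (0.675 to 1.02, edgeR unadjusted p = 0.0742). The fusion proteins themselves had few reads: MYMK, the membrane protein that fuses myoblasts, had 1 to 12 reads per animal, while its partner MYMX had at most 3 reads and 0 in 9 of 14 animals. Of 16 proliferation genes 9 were tested and 0 passed, with 4 fold changes above 1, 5 below and a median log2 of -0.012. PCNA, the sliding clamp of DNA replication, had a ratio of 0.947 (0.846 to 1.06), and MCM2, a subunit of the replicative helicase, one of 0.883 (0.760 to 1.03). MKI67, which marks cycling cells of any type, had 5 to 43 reads per animal and a ratio of 1.58 (0.931 to 2.67), with its highest value, 2.43 CPM, in restricted 7.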

How the data were processed

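RNA was sequenced from longissimus dorsi of 14 animals, grouped by the treatment label (7 restricted, 7 control); replicate numbers only name animals. The authors deposited raw counts of reads per gene, not normalized, with a listed length per gene. Per the submitters' processing notes, FastQC, HISAT2, featureCounts and edgeR were used with the build ARS-UCD1.2; the sources used here give no versions, annotation release or strand setting, so antisense and overlapping genes cannot be told apart. Of 18078 rows, 2578 had no symbol.

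Genes were filtered with filterByExpr (minimum count 10, total 15), which left 12187, scaled by TMM and tested with edgeR 4.0.16 (quasi-likelihood, R 4.3.3, no covariates), with p-values adjusted over all genes; limma 3.58.1 and DESeq2 1.42.0 were alternatives. Ratios are restricted over control. Correlations used log2 CPM (prior count 2). The edgeR fit, the permutation test of correlations and the exact permutation between diets were tried on simulated or constructed values. The test that flips signs within animals was not. Genes named outside the 9 come from those picked by a rule: per list, the 2 with most reads, any at unadjusted p under 0.05 and the smallest p. The rule also took the 3 genes most like each member, and not every gene it picked is named. TCF12, ID1, ID2, ID3, HES1, HEYL, HDAC9, CALCR, MYMK, MYMX, MYH3 and MYH8 were chosen after their values were seen. The members and lists were chosen with earlier results of these data known.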

Additional observations from a re-analysis of the deposited data

Results flagged for a closer look

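MYOD1 in restricted 2 was flagged because it lay far from the other restricted animals, at 41.5 CPM with the next highest animal of the group at 21.7 CPM. Chance flags about 1 in 20 groups, and 1 of the 20 groups checked was flagged. Control 4 also had the most MYOD1 of its group, at 35.6 CPM, without being flagged.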

How the results depend on the processing

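No paired analysis was possible because replicate numbers are only names given in the order of the samples, and no number in the titles is shared by a restricted and a control animal. The count of genes called between diets was 0 in the main analysis and in each analysis without 1 animal. It was 1 by DESeq2 (MTSS1L), 1 with only titles ending in A (a gene with no symbol) and 1 with only titles ending in B (NR4A3), and no member passed under any alternative. Signs of small log2 fold changes turned in some subsets. MYF5 was at 0.0070 with titles ending in A and 0.022 with titles starting with Y, and MYF6 at -0.024 with titles ending in B. With titles ending in A, MYOG was at -0.051 and SIX4 at 0.0015, while MYOG was at 0.42 with titles ending in B. Without the 3 libraries high in interferon genes MYF6 was at -0.071 and CDH15 at 0.031. Leaving out 1 animal gave -0.13 to 0.052 for MYF5, -0.41 to 0.012 for MYOD1, -0.0019 to 0.15 for MYF6, -0.094 to 0.034 for CDH15, 0.25 to 0.53 for PAX7, 0.088 to 0.28 for MYOG, 0.14 to 0.24 for MEF2C and -0.17 to -0.058 for SIX4. The difference in the MYF6 share was 0.40 percentage points with all animals, 4.32 with titles ending in A, 3.70 with titles starting with Y, -3.39 with titles ending in B, -1.71 without the 3 libraries and -1.38 to 2.86 leaving out 1 animal. No pair of members passed under any alternative. The count of relations to lists was 0 without the 3 libraries, with library size scaling and with deviations from diet means, and 0 to 1 leaving out 1 animal. For relations to lists, leaving out 1 animal or the 3 libraries was chosen after seeing the data. The cause of these shifts was not tested. Counting error limits PAX7, PAX3 and MYF5.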

Other observations

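The developmental myosins ranged widely between animals of both diets. MYH3, the embryonic heavy chain, was at lowest 6.23, at median 66.6 and at highest 80.8 CPM in restricted animals, against 5.01, 7.56 and 70.1 CPM in control animals (ratio 2.17, 95% interval 0.767 to 6.12). MYH8, the perinatal chain, was at lowest 6.87, at median 41.3 and at highest 70.1 CPM in restricted animals, against 11.7, 45.8 and 62.2 CPM in control animals. Near-identical heavy chain genes may split reads, so these values are uncertain.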
